A study of Mus musculus with 3 samples.

Results

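Collagens and laminins are the chains from which the fibrils and the basement membranes of a tissue are built. The 52 genes described here are all those of the 20774 named genes on the arrays whose annotation symbol follows the form of a collagen chain (42 genes) or a laminin chain (10 genes). They were read by 84 array features, with 35 genes resting on 1 feature and 17 on more. The study compared whole proximal jejunum of mice carrying a Sox4 knockout made with vilCre, a Cre recombinase driven by the villin promoter of the intestinal epithelium, with jejunum of wild-type mice. Each of 3 two-colour arrays held the RNA of 1 knockout mouse in Cy5 and wild-type RNA in Cy3, without a dye swap and with no further detail on the wild-type mice or on age in the labels.

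A collagen molecule is a triple helix of chains, and the chains fall into types that build different structures. Fibrillar collagens form the fibres of the interstitial matrix. Type IV collagen and the laminins form the paired networks of the basement membrane, on which the epithelium, muscle and vessels rest. In the intestine most interstitial collagen comes from mesenchymal cells of the lamina propria, submucosa and muscle layers, whereas laminins come from both epithelium and mesenchyme. Whole jejunum holds all of these cells, while villin-Cre acts in the epithelium, and in such bulk RNA fewer cells of a type and less RNA per cell cannot be told apart.

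Values are ratios of the knockout over the wild-type channel, read as log2 and in the direction that the dyes in the labels give, since the value table states neither; with the opposite direction every sign below would turn, and under the natural logarithm folds would be larger. The ratios hold no expression level, so neither the abundance of a chain nor the identity of the tissue could be checked from them. Array medians over all features lay between 0.003 and 0.011, and the arrays correlated with each other at 0.44 to 0.51 across features. Sox4 itself, averaged over its 3 features, had ratios of -0.66, 0.18 and -0.46 on arrays 1, 2 and 3. By this average the array 2 library labelled knockout lay above wild type, but the features disagreed there, with 1.23, 0.03 and -0.72. The last of these features was below 0 on every array (-1.21, -0.72 and -0.93). The 3 Sox4 features had means from -0.95 to 0.42 (gene mean -0.31 ± 0.44, adjusted p = 0.332), and whether they lie in the deleted part is not given. Of 4 sex-linked genes measured, 3 passed the test used below. The X-inactivation RNA Xist was higher (1.71 ± 0.18, SD, n = 3, adjusted p = 0.0209, or 0.0501 to 0.172 without 1 array). The Y-linked Eif2s3y (-7.28 ± 0.25) and Uty (-3.05 ± 0.91) were lower, Uty not past the threshold without array 1 or 3 or with quantile normalization (adjusted p = 0.209, 0.203 and 0.0508). Sex and genotype cannot be told apart in the ratios below.

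No collagen or laminin gene passed limma's test at an adjusted p of 0.05, where 0.327% of all 20774 genes did (0.106% higher and 0.221% lower). Before adjustment, 7 of the 52 genes (13.5%) lay under a p of 0.05, against 26.3% of all genes. Of these, 6 were lower, namely Lama3, Col7a1, Col5a2, Lama1, Col8a1 and Col4a5, against a background of 14.3% of all genes lower, and Col4a2 was the 1 higher, against 12.0%. The means of the 52 genes ran from -0.75 for Lama3 to 0.72 for Col6a2, with 24 above 0 and 28 below, and their median was -0.01 (all genes -0.03).

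The ratios of these genes differed between arrays more than they shared a direction. Their median SD over the 3 arrays was 0.29, compared with 0.22 for all genes. On array 1 their median was -0.18, with 37 genes below 0 and 14 above. Array 2 had a median of 0.11 with 32 genes above 0, and array 3 a median of 0.08 with 30. The same order within a gene, lowest on array 1 and highest on array 2, was found for 20 of the 52 genes (38.5%, against 17.4% of all genes). A ratio below 0 on all 3 arrays was found for 11 genes (background 27.3%), a ratio above 0 on all 3 for 8 (background 23.2%), and the remaining 33 changed sign between arrays or had a ratio of 0 on one of them.

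**Figure D1:**
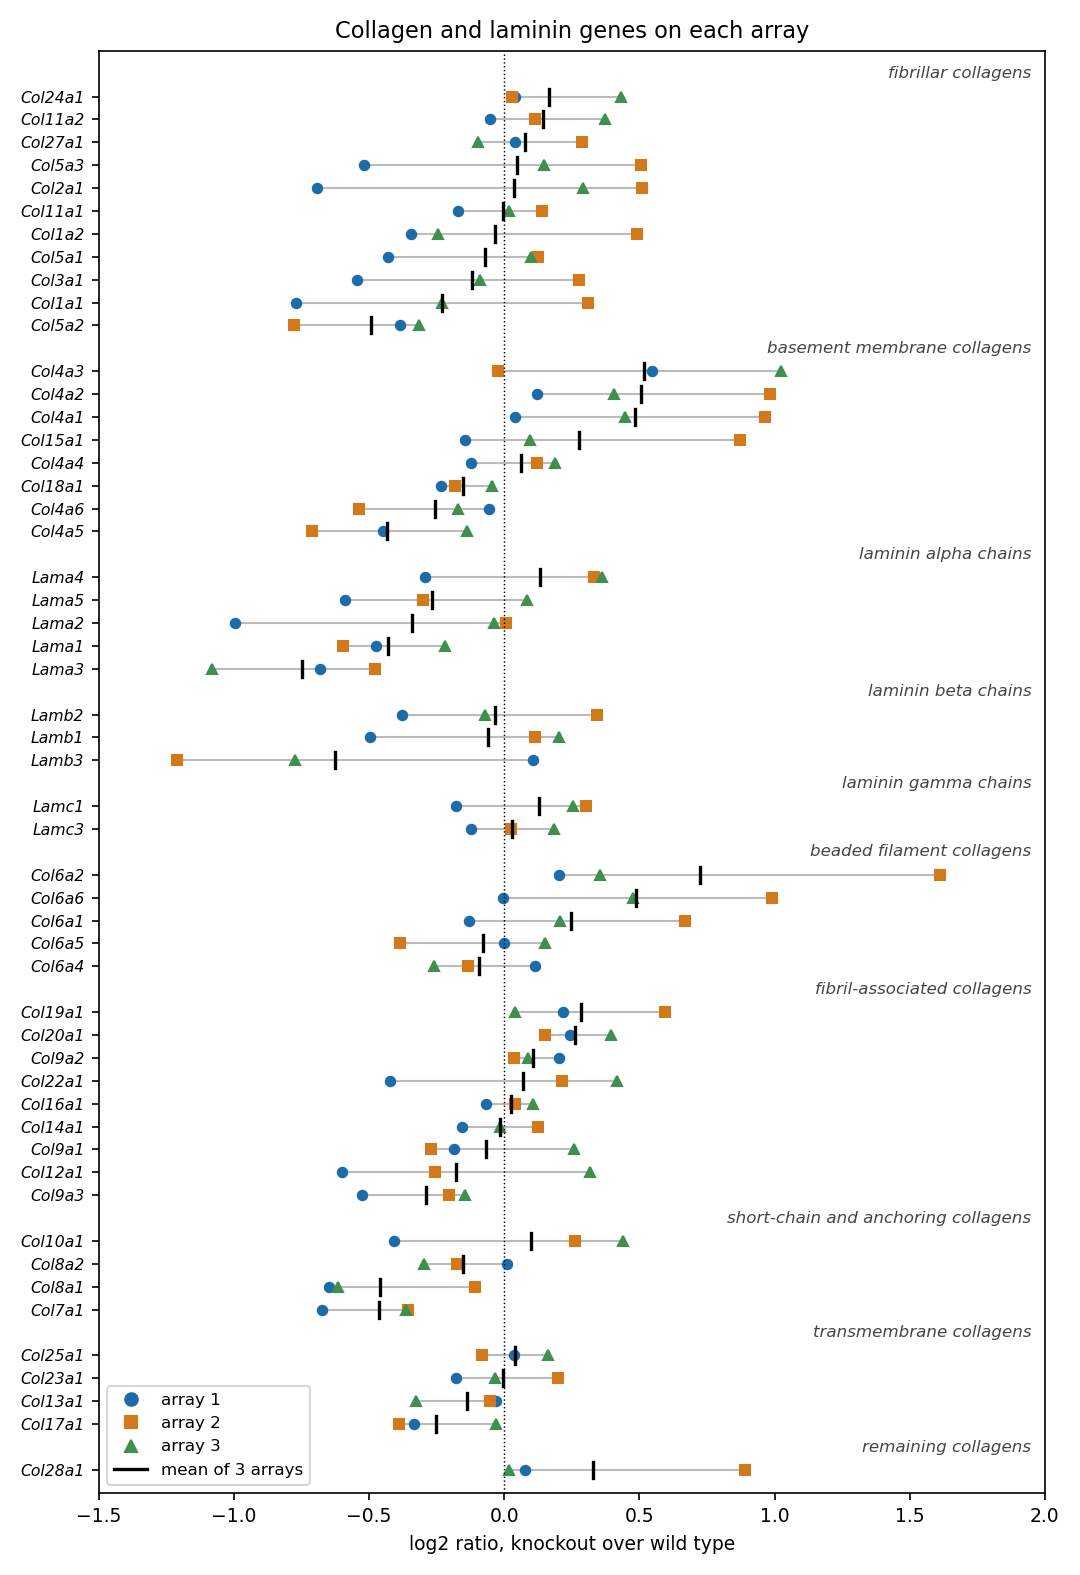
Log2 ratio of knockout over wild type (horizontal axis) for each of the 52 collagen and laminin genes, grouped by class; symbols are the 3 arrays, grey bars their range and black ticks the mean. The fibrillar genes mostly run from negative on array 1 to positive on array 2, whereas Lama3, Lama1, Col7a1 and Col5a2 lie below 0 on every array.

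The fibrillar collagens, 11 genes, had medians of -0.39, 0.28 and 0.02 on arrays 1, 2 and 3. Array 1 was the lowest and array 2 the highest for 7 of them (63.6%, against 17.4% of all genes). Col1a1, the major chain of type I collagen, the main fibril protein of connective tissue, had ratios of -0.77, 0.31 and -0.23. Its partner Col1a2 had -0.35, 0.49 and -0.25. Both chains were thus below 0 on arrays 1 and 3 and above it on array 2, and their means of -0.23 ± 0.54 and -0.03 ± 0.46 (SD, n = 3) were smaller than that spread. Col3a1, the chain of the type III collagen of fine reticular fibres in the gut wall, followed the same course with -0.55, 0.28 and -0.09 (mean -0.12 ± 0.41, adjusted p = 0.692).

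The chains of type V collagen, which is built into type I fibrils and governs their diameter, had unlike ratios on array 2. Each of these chains was read by 1 feature. Where a member had several features, they spanned from 0.07 (Col4a1) to 1.55 (Col6a6) on that array. Col5a1 had -0.43, 0.12 and 0.10, close to Col3a1 on arrays 1 and 2. Col5a2 was below 0 on every array, with -0.39, -0.78 and -0.32, a mean of -0.49 ± 0.25 (95% interval -0.84 to -0.15, adjusted p = 0.112). It was lowest on array 2, where 10 of the 11 fibrillar genes were above 0, and was the 1 fibrillar gene below 0 there. Col5a3 spanned -0.52 to 0.51. Col2a1, Col11a1 and Col11a2, the fibril chains of cartilage, had means of 0.04, -0.00 and 0.14. The minor fibrillar genes Col24a1, with the highest mean of the class, and Col27a1 averaged 0.17 ± 0.23 and 0.08 ± 0.20.

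Col1a2 and Col3a1 (both plus strand) are shown with the 250 bases before their transcription start because their ratios ran alike over the arrays while these sequences differ. They are from RefSeq (GRCm38.p6), printed 5′ to 3′ on the plus strand, at chr6:4505368-4505617 and chr1:45311288-45311537. Capitals mark 5 motifs on either strand, none of which contains another: the CCAAT box, the GC box (letters GGGCGG), the TATA box (letters TATAAA), and a pair of the kind that Sox proteins bind, spelled ACAAAG in one case and ACAATG in the other.
Col1a2: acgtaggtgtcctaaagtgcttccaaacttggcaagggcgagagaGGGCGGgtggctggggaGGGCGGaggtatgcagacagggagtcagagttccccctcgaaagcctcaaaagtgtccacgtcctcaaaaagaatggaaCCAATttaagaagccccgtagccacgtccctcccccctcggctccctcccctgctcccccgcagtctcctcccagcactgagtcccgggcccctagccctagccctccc
Col3a1: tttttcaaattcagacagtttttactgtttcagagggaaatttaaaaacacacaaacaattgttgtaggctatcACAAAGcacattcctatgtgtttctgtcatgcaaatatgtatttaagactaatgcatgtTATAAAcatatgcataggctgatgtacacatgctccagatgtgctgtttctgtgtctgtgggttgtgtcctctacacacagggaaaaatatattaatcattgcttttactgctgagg
The Col1a2 stretch is 62.0% G and C with 2 GC boxes and 1 CCAAT box. That of Col3a1 is 35.2% G and C, with 1 match each to TATAAA and ACAAAG.

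RefSeq windows were found for 39 of the 52 genes, 43 windows in all, and matches are descriptions of these letters only. GGGCGG stood in 55.8% of the genes' windows and in 32.7% of all 32851 windows of the same length, and the median G and C content was 59.2% against 52.4%. CCAAT (32.6% against 33.8%) and TATAAA (11.6% against 12.4%) stood in like shares of both. ACAAAG stood in 9.3% of the genes' windows and 16.5% of all, and ACAATG in 2.33% and 10.7%.

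Among the basement membrane collagens, Col4a1 and Col4a2 had close ratios on each array. These chains form the type IV network found under nearly all epithelia and around vessels. Col4a1 had 0.04, 0.97 and 0.45 and Col4a2 had 0.12, 0.98 and 0.41, so both were near 0 on array 1, close to a doubling on array 2, and in between on array 3. Their means were 0.48 ± 0.46 (95% interval -0.00 to 0.97, adjusted p = 0.191) and 0.50 ± 0.44 (0.04 to 0.97, adjusted p = 0.171), and without array 2 they were 0.24 and 0.26. The largest gap between them on any array was 0.08, which placed the pair 7th in closeness among the 1326 pairs that the 52 genes can form, where the median largest gap was 0.65.

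Col4a1 was read by 10 features of 1 accession, which share the labelling and hybridisation of an array. Whether they repeat 1 probe sequence is not known here, so their spread need not show how far features of different sequence differ. On array 2 the 10 features ran from 0.94 to 1.01, on array 1 from -0.05 to 0.11 and on array 3 from 0.21 to 0.57. The mean SD between its features on an array was 0.06, against an SD of 0.46 between arrays. For the 384 genes with at least 10 features of 1 accession, the medians of these SDs were 0.08 and 0.19, and Col4a1 ranked 38th of them in spread over arrays. What differs between the arrays besides the knockout mouse, including the wild-type RNA, is not given in the labels, and the part of each was not tested.

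**Figure D2:**
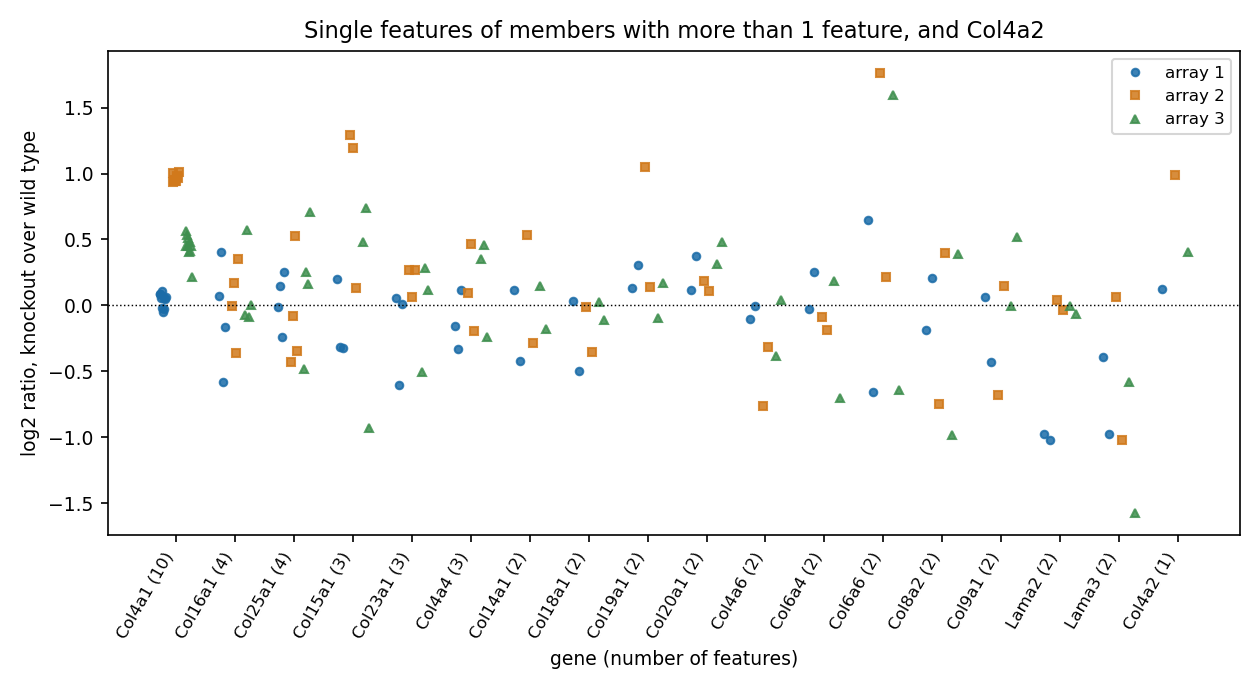
Log2 ratio of knockout over wild type (vertical axis) of every single feature for the 17 genes with more than 1 feature and for Col4a2, by array. The 10 Col4a1 features form tight groups that separate by array, while the features of Col6a6, Col8a2, Col15a1 and Lama3 disagree within an array.

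Col4a1 and Col4a2 lie head to head on chromosome 8, and their gene models share 85 bases. The 22 bases from the first transcribed base of Col4a2 to that of Col4a1 in the RefSeq windows (plus strand, GRCm38.p6, chr8:11312805-11312826) are shown because both transcripts begin there in opposite directions. Motifs are not marked by capitals in this stretch, which does hold the GC box letters GGGCGG.
Col4a1 and Col4a2: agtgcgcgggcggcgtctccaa
The 250 bases before each start are 74.4% and 73.6% G and C. Of 8 pairs of members that neighbour each other, none of the others was as close in its ratios. Col4a4 and Col4a3, whose gene models share 114 bases, differed by up to 0.84 on an array, Col3a1 and Col5a2 by 1.05, Col6a2 and Col6a1 by 0.94 and Col6a6 and Col6a5 by 1.38. Col6a5 and Col6a4 differed by up to 0.41, Col4a6 and Col4a5 by 0.39, and Col9a1 and Col19a1 by 0.86.

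The other type IV chains did not follow Col4a1 and Col4a2. Col4a3, a chain of the specialised networks of kidney and lung, had 0.55, -0.02 and 1.02, the highest mean of the class (0.52 ± 0.52, adjusted p = 0.199). Its partner Col4a4 averaged 0.06 ± 0.17. Col4a5, which joins either Col4a3 and Col4a4 or Col4a6, was below 0 on all arrays, with -0.45, -0.71 and -0.14 (mean -0.43 ± 0.29, 95% interval -0.80 to -0.06, adjusted p = 0.149). Col4a6, known from basement membranes of smooth muscle, had -0.06, -0.54 and -0.17 (mean -0.25 ± 0.25). These last 2 genes, both X-linked, were lowest on array 2, where Col4a1 and Col4a2 were highest. The median of 754 X-linked genes was -0.07.

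Collagens XV and XVIII attach basement membranes to the matrix around them. Col18a1, from which endostatin is cut, was slightly below 0 on each array (-0.23, -0.18 and -0.04). Col15a1 had -0.15, 0.87 and 0.10, but its 3 features had means from -0.37 to 0.66, so the gene's value depends on which features are read. Over all 8 basement membrane collagens the median of the mean ratios was 0.17, and the medians on the arrays were -0.09, 0.05 and 0.14. Without array 1 the former was 0.32, and without array 2 it was 0.00, so it moved with single arrays.

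Laminins are trimers of an alpha, a beta and a gamma chain, and the 10 genes had array medians of -0.43, 0.01 and 0.02. On array 1, 9 of the 10 were below 0, against 4 on array 2 and 5 on array 3. The median of their mean ratios was -0.16, and ran from -0.32 without array 3 to 0.04 without array 1. The lowest mean of all 52 genes was that of Lama3, the alpha chain of laminin-332, which anchors epithelial cells through hemidesmosomes. Lama3 had -0.68, -0.48 and -1.08, a mean of -0.75 ± 0.31 (95% interval -1.13 to -0.37, adjusted p = 0.0777), which missed the threshold. Its 2 features differed, one averaging -1.19 and below 0 on each array, the other -0.30 with 0.07 on array 2. Lamb3, the beta chain of the same trimer, had 0.11, -1.21 and -0.77 (mean -0.63 ± 0.67, adjusted p = 0.198). The gap to Lama3 reached 0.79 on array 1, where Lamb3 alone of the laminins was above 0.

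Lama1, known from embryonic basement membranes, was below 0 on all arrays with -0.47, -0.60 and -0.22 (mean -0.43 ± 0.19, adjusted p = 0.121). Lama5, the main alpha chain under adult epithelia, had -0.59, -0.30 and 0.08 (mean -0.27 ± 0.34). Lama2, best known from muscle, was at -0.997 on array 1 and at 0.00 and -0.04 on arrays 2 and 3, so its mean of -0.34 ± 0.57 rested on array 1; its 2 features agreed within 0.08 on each array. Lama4, the alpha chain of vessels, averaged 0.13 ± 0.37, the highest of the alpha chains.

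Lamb1 and Lamc1, the beta and gamma chains shared by most laminins, had -0.50, 0.11 and 0.20 and -0.18, 0.30 and 0.26. Their means were -0.06 ± 0.38 and 0.13 ± 0.27. Both ran with Lama4 (-0.29, 0.33 and 0.36), from which Lamc1 differed by at most 0.12 and Lamb1 by at most 0.22 on an array. These are the chains of laminin-411, and in closeness the pair of Lama4 and Lamc1 ranked 15th and that of Lama4 and Lamb1 58th of the 1326 pairs. Lamb2, of the laminins of muscle and nerve endings, had -0.38, 0.34 and -0.07 (mean -0.03 ± 0.36), and Lamc3 stayed between -0.13 and 0.18 (mean 0.03 ± 0.15). Over 26 listed pairs of chains known to share a molecule the median largest gap was 0.55, against 0.65 for all pairs, and 15 of the 26 lay below the latter. The list does not hold every such pair, and that of Col8a1 and Col8a2 is among those left out.

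**Figure D3:**
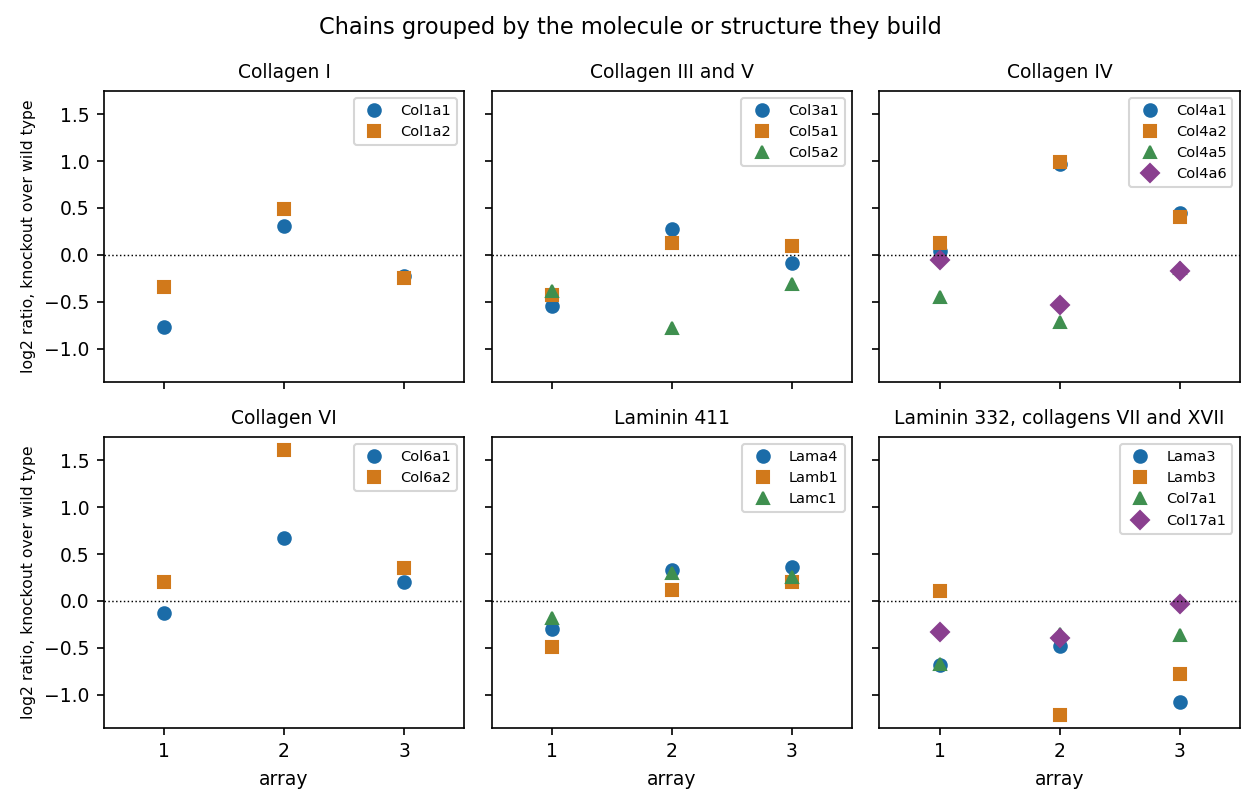
Log2 ratio of knockout over wild type (vertical axis) on arrays 1 to 3 (horizontal axis) for chains grouped by the molecule or structure they build. Col4a1 and Col4a2 lie within 0.08 of each other on each array, the chains of laminin-411 lie close together, and Lama3, Lamb3, Col7a1 and Col17a1 lie below 0 but for Lamb3 on array 1.

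Col7a1 and Col17a1 belong to the same anchoring structure as laminin-332 in stratified epithelia, Col7a1 as the anchoring fibril and Col17a1 as a membrane protein of the hemidesmosome. Col7a1 had -0.67, -0.36 and -0.36 (mean -0.46 ± 0.18, 95% interval -0.78 to -0.15, adjusted p = 0.106). Col17a1 had -0.34, -0.39 and -0.03 (mean -0.25 ± 0.19, adjusted p = 0.266). Neither passed the test, and both were below 0 on all arrays. The SD of Col7a1 over arrays, 0.18, was below the median of 0.29 of the 52 genes, though others had less, such as Col9a2 with 0.08. The bases before the start of Col7a1 (RefSeq, GRCm38.p6, chr9:108953336-108953585, plus strand) are shown with capitals as above.
Col7a1: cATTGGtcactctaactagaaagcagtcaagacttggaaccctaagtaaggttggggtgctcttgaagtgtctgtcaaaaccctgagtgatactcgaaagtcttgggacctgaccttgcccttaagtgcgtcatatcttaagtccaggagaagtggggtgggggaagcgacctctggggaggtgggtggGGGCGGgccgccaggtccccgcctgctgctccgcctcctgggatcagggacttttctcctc
It holds 1 CCAAT box, on the minus strand, and 1 GC box.

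Type VI collagen forms beaded filaments around cells, among them fat, muscle and nerve. Col6a2 had the highest mean of the 52 genes, 0.72 ± 0.77 (95% interval -0.00 to 1.45, adjusted p = 0.191), but its ratios of 0.20, 1.61 and 0.36 show that array 2 carried it. Its partner Col6a1 had -0.13, 0.67 and 0.21 and was also highest on array 2. The gap between the partners on that array was 0.94. Col6a6 averaged 0.49 ± 0.50 from 2 features that disagreed, one with 0.65, 1.76 and 1.59 and the other with -0.66, 0.22 and -0.64, and Col6a4 and Col6a5 averaged -0.09 and -0.08. The class median was 0.00, 0.67 and 0.21 on the 3 arrays.

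The fibril-associated collagens, which coat fibrils, were near 0, with means from -0.29 to 0.28. Col9a3, a cartilage chain, had -0.53, -0.20 and -0.15 (mean -0.29 ± 0.20), and Col19a1, a minor chain, had 0.22, 0.59 and 0.04 (mean 0.28 ± 0.28). Col20a1 and Col9a2 were above 0 on every array with means of 0.26 ± 0.12 and 0.11 ± 0.08. Col12a1, found on fibrils of dense connective tissue, went from -0.60 on array 1 to 0.32 on array 3. Col14a1 and Col16a1, of similar role, averaged -0.02 and 0.03, each from features of opposite sign. Col9a1, of cartilage, and Col22a1, of tissue junctions, averaged -0.07 ± 0.28 and 0.07 ± 0.44. None of the 9 genes had an unadjusted p under 0.05.

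Of the short-chain collagens, Col8a1, a chain made in vessels, was below 0 on all arrays with -0.65, -0.11 and -0.62 (mean -0.46 ± 0.30, adjusted p = 0.141). Its partner Col8a2 averaged -0.15 ± 0.16 from 2 features with means of -0.64 and 0.33. Col10a1, of growth cartilage, had the highest mean of this class, 0.10 ± 0.45. The transmembrane collagens Col13a1, Col23a1 and Col25a1 averaged -0.14, -0.00 and 0.04, the last being the highest of its class. Col28a1, a collagen of nerve sheaths, had 0.08, 0.89 and 0.02 (mean 0.33 ± 0.49). Col26a1, which the annotation lists under the older symbol Emid2 and the choice of symbols left out, had -0.31, 0.48 and -0.25. Col21a1 and Col6a3 were not analysed here. Of the 17 genes with several features, 11 had features whose means lay on opposite sides of 0.

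**Figure D4:**
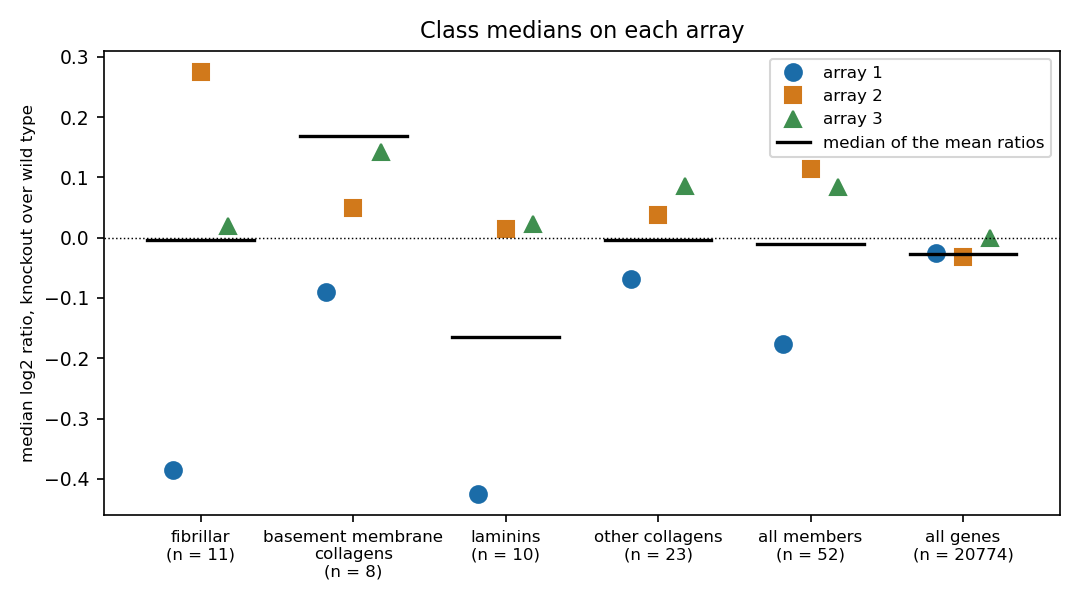
Median log2 ratio of knockout over wild type (vertical axis) of each class on arrays 1 to 3 (symbols), with the median of the genes' mean ratios (bars). Fibrillar collagens span -0.39 to 0.28 between arrays 1 and 2, and laminins lie at -0.43 on array 1, while the medians of all genes stay between -0.03 and 0.00.

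Fibrillar and basement membrane genes (type IV, XV and XVIII collagens with the laminins) did not differ in a common direction. Taking the fibrillar median minus the basement membrane median gave -0.18, 0.26 and -0.07 for arrays 1, 2 and 3. Within the basement membrane, collagens lay above laminins on each array, by 0.34, 0.03 and 0.12.

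Genes that make, bind or break down these chains were taken as further lists. Of 30 genes of collagen synthesis and cross-linking none passed the threshold, and 10 had an unadjusted p under 0.05 (6 higher, 4 lower), or 33.3% against a background of 26.3%. Their smallest p-values were those of Pcolce2 (-0.71 ± 0.17), which enhances procollagen processing, of the lysyl hydroxylase Plod3 (0.74 ± 0.23) and of the transglutaminase Tgm2 (0.57 ± 0.12). Among 17 basement membrane partners, Fras1 fell (a background of 0.221% of genes), with -1.56, -1.97 and -1.26 (mean -1.60 ± 0.36, adjusted p = 0.0464). Fras1 encodes a protein of the Fraser complex beneath embryonic epithelia. The call was lost without any 1 array (adjusted p = 0.231, 0.0666 and 0.203 without arrays 1, 2 and 3) and with quantile normalization between arrays (adjusted p = 0.0508). The other 16 did not pass, among them Egfl6 (-0.65 ± 0.26), and Frem1, of the same complex as Fras1, at -0.78 ± 0.51.

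None of 18 collagen and laminin receptors passed, with the platelet collagen receptor Gp6 at -0.69 ± 0.22 and the integrin genes Itga3, of a laminin receptor, at 0.58 ± 0.37 and Itga1, of a collagen receptor, at -0.42 ± 0.26. The 20 genes of fibril proteoglycans and interstitial matrix had none past the threshold. Their medians were -0.33, 0.24 and -0.02 on arrays 1, 2 and 3, the order of the fibrillar collagens. Of the 20, 14 were lowest on array 1 and highest on array 2, against 17.4% of all genes. In this list Postn, a matricellular protein, had -0.48 ± 0.07, and the leucine-rich proteoglycans Prelp and Ogn 0.50 ± 0.16 and -0.63 ± 0.52. Of 21 matrix metalloproteinases and inhibitors none passed and 1, the gelatinase Mmp9 (0.63 ± 0.31), had an unadjusted p under 0.05 (4.76%, against 26.3% of all genes), with Timp3 at -0.31 ± 0.19 and Mmp16 at -0.52 ± 0.59. None of 18 genes of the TGF-beta pathway, a main inducer of collagen genes, passed, and 7 (38.9%, 1 higher and 6 lower) had an unadjusted p under 0.05, against the same 26.3%. Tgfb1 had 0.62, 1.46 and 0.73 (mean 0.94 ± 0.46, adjusted p = 0.0791), and the receptor gene Tgfbr3 and Smad2 had -0.61 ± 0.27 and -0.56 ± 0.25.

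**Figure D5:**
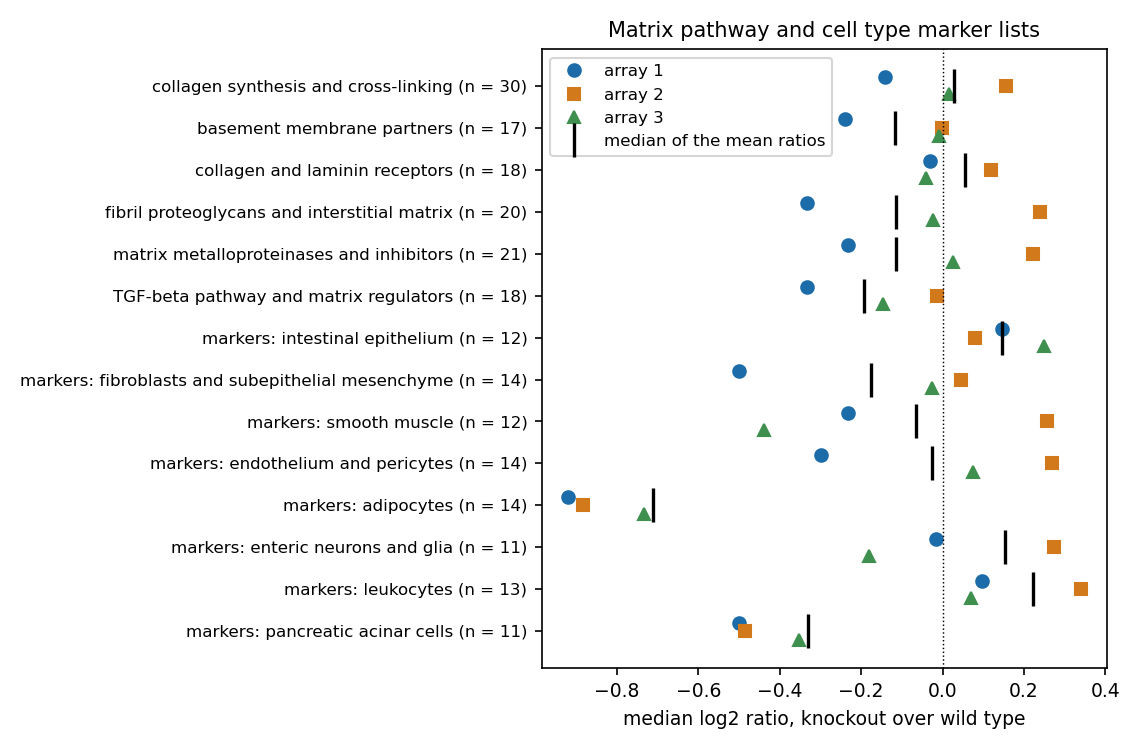
Median log2 ratio of knockout over wild type (horizontal axis) of each matrix pathway and cell type marker list on arrays 1 to 3 (symbols), with the median of the genes' mean ratios (ticks). The medians of the synthesis, basement membrane partner, proteoglycan, metalloproteinase, TGF-beta, fibroblast and endothelial lists are lowest on array 1 and highest on array 2, and the adipocyte median lies far below 0 on every array.

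Markers of cell types in the gut wall were set beside these chains. The 14 fibroblast and mesenchyme markers had medians of -0.50, 0.04 and -0.03 on arrays 1, 2 and 3, and the 14 endothelial and pericyte markers -0.30, 0.27 and 0.07. In each of these lists 5 of the 14 genes were lowest on array 1 and highest on array 2, against 17.4% of all genes. The 12 smooth muscle markers had -0.23, 0.26 and -0.44, and 6 of the 12 had that order. No gene of these 3 lists passed, with the fibroblast gene Pi16 lowest at -1.79 ± 0.69 (adjusted p = 0.0629) beside Fap (-0.51 ± 0.12) and Foxf2 (-0.49 ± 0.20), while 6 of the 14 fibroblast markers had means above 0, up to 0.13. For muscle the smallest p-values were those of Myocd (-0.86 ± 0.58), Cnn1 (-0.43 ± 0.25) and Smtn (0.40 ± 0.23), and for vessels those of Flt4 (0.53 ± 0.21), Kcnj8 (-0.43 ± 0.21) and Lyve1 (-0.37 ± 0.40). None of the 12 epithelial markers passed either, and they had medians of 0.15, 0.08 and 0.25, with Krt19 at 0.83 ± 0.21, Vil1 at 0.48 ± 0.14 and Cldn3 at 0.35 ± 0.19. Of these 12, 4 had means below 0, the lowest being Epcam at -0.27.

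Of 14 adipocyte markers 5 fell (0.221% of all genes did), Adipoq (-4.68 ± 0.41), Cfd (-5.95 ± 0.65), Retn, Car3 and Plin1, and the list's medians were -0.92, -0.88 and -0.73. None of these 5 passed without array 3 (adjusted p from 0.0635 to 0.156), and Retn and Plin1 also missed the threshold without array 1. Of the 14 markers, 1 had a mean above 0, Lipe at 0.21 ± 0.20. Beside the adipocyte markers, Col6a2 and Col6a1 of type VI collagen, which fat also makes, had means of 0.72 and 0.25. Without array 2 these means were 0.28 and 0.0375. No marker passed among 11 of neurons and glia (medians -0.01, 0.27 and -0.18; Chrna3 -0.83 ± 0.02, S100b -0.60 ± 0.12, Snap25 0.49 ± 0.09), 13 of leukocytes (0.10, 0.34 and 0.07; Cd8a -0.47 ± 0.14, Cpa3 -2.35 ± 2.11, Ptprc 0.29 ± 0.13) or 11 of pancreatic acinar cells (-0.50, -0.48 and -0.35; Try5 -1.72 ± 0.46, Pnlip -1.24 ± 0.44, Try4 -1.65 ± 0.77). Of the 11 acinar markers, 1 had a mean above 0, Ctrb1 at 0.41 ± 0.29. Of the 13 leukocyte markers, 9 had means above 0 and 4 below, and Cpa3 had ratios of -3.99, 0.03 and -3.08. Among the 11 neuron and glia markers 6 had means above 0 and 5 below. Array 1 was lowest and array 2 highest for 6 leukocyte markers, 2 each of epithelium and of neurons and glia, and 1 each of adipocytes and acinar cells. The part of any of these cell types in the collagen and laminin ratios was not tested.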

How the data were processed

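RNA was hybridised to 3 two-colour arrays, which form 1 group, Sox4 knockout with replicates 1 to 3. The authors deposited 1 table of log ratios, taken here as log2, an assumption; its values run from -7.44 to 5.62 with medians near 0, and for the normalization, log base and ratio direction the sources used here give nothing. The number of arrays limits the precision, and p-values measure only the spread between these arrays; whether it includes that between wild-type mice is not known, since the labels do not say which wild-type RNA each array held.

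Of 62976 features, 31465 had 1 gene symbol in the platform annotation, none had several, and 31511 were unnamed here. Features of a symbol were averaged per array, giving 20774 genes. Each gene's mean ratio was set against 0 by limma (version 3.58.1; R version 4.3.3; lmFit and eBayes, 2 residual and 3.51 prior degrees of freedom; two-sided, Benjamini-Hochberg over all genes), after a check on simulated data. Errors are SDs over arrays. No intensities were used, so dim features were kept. Gene positions and the sequences of the windows come from RefSeq tables of GRCm38.p6.

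Named were members past the threshold, every laminin, Col1a1, Col1a2, Col3a1, Col4a1, Col4a2, Col6a1, Col6a2 and Col6a3 (Col6a3 was not analysed here), the highest and lowest of each class, and in other lists the genes past the threshold or otherwise the 3 with the smallest p. Values of all remaining members are given as well. The members and lists were chosen with earlier results of these data known. Alternatives were the median of features, centring, quantile normalization, a robust variance model, updated symbols, each feature fitted alone and leaving out each array. Figures were drawn with matplotlib 3.10.9 and tables made with numpy 2.4.6 and pandas 2.3.3 under Python 3.11.15.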

Additional observations from a re-analysis of the deposited data

How the results depend on the processing

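No member passed the threshold under any alternative, the lowest adjusted p of a gene being 0.0744 and of a single feature 0.0758, and 5 to 9 of the 52 had an unadjusted p under 0.05 (all genes 15.7%, 22.1% and 18.7% without arrays 1, 2 and 3, and 26.2% to 26.5% otherwise). Genes past the threshold over the whole table numbered 68, 48 to 73 under the other settings, and 4 to 61 without 1 array (10 without array 1, 61 without array 2 and 4 without array 3). The median of the basement membrane collagens, 0.17, ran from 0.0038 to 0.32. The means of 30 members kept their sign without any 1 array, but 21 of these moved by over 1.5 times, among them Col28a1 (0.0465 to 0.48), Col6a1 (0.0375 to 0.44), Lama4 (0.0185 to 0.35), Lama2 (-0.52 to -0.0162) and Lamb3 (-0.99 to -0.33). For the other 22, none larger than 0.27 in size, the mean without 1 array ranged as follows: Col10a1 -0.073 to 0.35, Col11a1 -0.077 to 0.08, Col12a1 -0.43 to 0.031, Col14a1 -0.086 to 0.053, Col15a1 -0.024 to 0.48, Col16a1 -0.014 to 0.072, Col1a1 -0.50 to 0.041, Col1a2 -0.29 to 0.12, Col22a1 -0.11 to 0.32, Col23a1 -0.11 to 0.082, Col25a1 -0.023 to 0.098, Col27a1 -0.03 to 0.16, Col2a1 -0.20 to 0.40, Col3a1 -0.32 to 0.092, Col4a4 -0.0018 to 0.15, Col5a1 -0.17 to 0.11, Col5a3 -0.19 to 0.33, Col6a5 -0.19 to 0.075, Col9a1 -0.23 to 0.036, Lamb1 -0.19 to 0.16, Lamb2 -0.22 to 0.14 and Lamc3 -0.051 to 0.10. Col23a1 turned to 0.13 with the median of its features and Col6a5 to 0.0555 with updated symbols, and no other mean of a member turned under a setting that kept all arrays. The cause of these turns was not tested. The settings for Fras1 and for the adipocyte and sex-linked genes past the threshold were added after seeing the data. No paired analysis was possible because there is 1 group of arrays and no second group to pair it with; each ratio already sets knockout (Cy5) against wild type (Cy3) within an array. Without intensities, signal over background is unknown, and a ratio of dim features cannot be told from one of bright features.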
